A study of Mus musculus with 3 samples.

Results

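The genes described here are the constant region genes of the mouse immunoglobulin heavy chain, Ighm, Ighd, Ighg3, Ighg1, Ighg2b, Ighg2c, Ighe and Igha, and Jchain, which encodes the joining chain. They were taken by symbol, and all 9 were among the 32285 genes of the count matrices. At least 1 UMI (unique molecular identifier, 1 per captured molecule) was found for 7 of them in cells of young mice and for 9 in cells of aged and of aged-GA mice; Ighg1 and Ighe were at 0 in young cells. The samples were peripheral blood mononuclear cells (PBMCs) of 8-week-old (young) mice, of 16-month-old (aged) mice, and of 16-month-old mice given glycyrrhizic acid (aged-GA) for 1 month. Glycyrrhizic acid, a compound of liquorice root, was injected into the tail vein every other day, and the methods of the study state that control mice received phosphate-buffered saline by the same route. All mice were female C57BL/6. How many animals went into a library was not given in the labels, while a figure legend of the study gives a number of mice for each group. Each group was 1 library, so no comparison between groups has a replicate check and no test was run. The intervals given are exact 95% intervals and cover counting error only.

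In a developing B cell the variable region is joined first to the constant gene nearest to it, Ighm, and a naive B cell makes IgM and IgD from the same long transcript by splicing to Ighm or to Ighd. After activation the B cell can cut out the DNA in between and place a gene further downstream next to the variable region, which is class switching and gives IgG, IgE or IgA. Plasma cells secrete the antibody in large amounts, and the J chain links IgM and IgA units into the polymers that are carried across mucosal surfaces. In GENCODE M21 (GRCm38, the build mm10 of the submitters' notes) the heavy chain constant genes lay on the minus strand of chr12:113254830-113422730, in the order Ighm, Ighd, Ighg3, Ighg1, Ighg2b, Ighg2c, Ighe and Igha. Ighm was at chr12:113418558-113422730 (ENSMUSG00000076617), Ighd at chr12:113406604-113416324 (ENSMUSG00000104213) and Igha at chr12:113254830-113260236 (ENSMUSG00000095079). Jchain was at chr5:88519809-88527891 (ENSMUSG00000067149), also on the minus strand. Each heavy chain constant gene had 2 annotated transcripts, a shorter secreted and a longer membrane form. The counts, taken at the 3′ side of transcripts and summed per gene, do not separate these forms.

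The last 60 coding bases of the secreted transcripts, stop codon included, are shown because they hold the feature that divides the isotypes by their use of Jchain. Capitals mark the codon before the last amino acid. It is a cysteine codon in IgM and IgA, the residue that bonds with the J chain, and not in the IgG genes. The sequences are from GENCODE M21 transcripts and read 5′ to 3′ on the minus strand of GRCm38; all lie in the last coding exon of the secreted form.
Ighm, chr12:113420867-113420926: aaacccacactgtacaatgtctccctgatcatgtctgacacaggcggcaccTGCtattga
Igha, chr12:113258768-113258827: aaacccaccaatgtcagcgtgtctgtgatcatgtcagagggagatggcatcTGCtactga
Ighg1, chr12:113328976-113329035: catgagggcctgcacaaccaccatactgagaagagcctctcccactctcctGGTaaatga
Ighg2b, chr12:113306389-113306448: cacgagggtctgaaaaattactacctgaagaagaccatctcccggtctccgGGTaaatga
Ighg2c, chr12:113287389-113287448: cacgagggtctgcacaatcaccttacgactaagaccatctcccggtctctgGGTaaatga
Stretches of 60 bases shared between genes were few: 3.16% of those of Ighg2c also occurred in Ighg2b and 1.18% of those of Ighg3 in Ighg2b. Reads from those stretches cannot be given to 1 gene, so low counts of one of these genes beside high counts of the other are uncertain.

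After the filters of the study 8851 young, 10238 aged and 12648 aged-GA cells were left, with 48249945, 53770440 and 75832322 UMIs. Cells were placed in gates by marker genes that are not immunoglobulin genes. The B gate held 2254 young, 4057 aged and 5379 aged-GA cells, and the plasma gate 3, 46 and 44 cells. The T gate held 5369, 2123 and 3543 cells and the myeloid gate 64, 2004 and 880. Median depth per B-gated cell was 3407, 3070 and 3768 UMIs and per plasma-gated cell 19299, 17063 and 22486.5. The 8 B markers summed to 6945, 7770 and 7898 CPM (counts per 1000000 UMIs of the same gate) in B-gated cells, against 89.2 to 206 CPM in T-gated cells. The 10 plasma markers summed to 9599, 9129 and 8339 CPM in plasma-gated and to 464 to 586 CPM in B-gated cells. T markers were present in plasma-gated cells too: at least 3 of the 8 were found in 2 of the 3 young cells, in 7 of 46 aged and in 8 of 44 aged-GA ones. The 8 myeloid markers differed between libraries in B-gated cells, at 55.5 CPM in the young, 1219 in the aged and 464 in the aged-GA library, and their part in the results below was not tested. Cells above 20% haemoglobin UMIs, left out of every gate, made up 5.65%, 10.8% and 14.3% of the cells kept. Between 50 and 62 barcodes were shared by any 2 libraries.

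**Figure D1:**
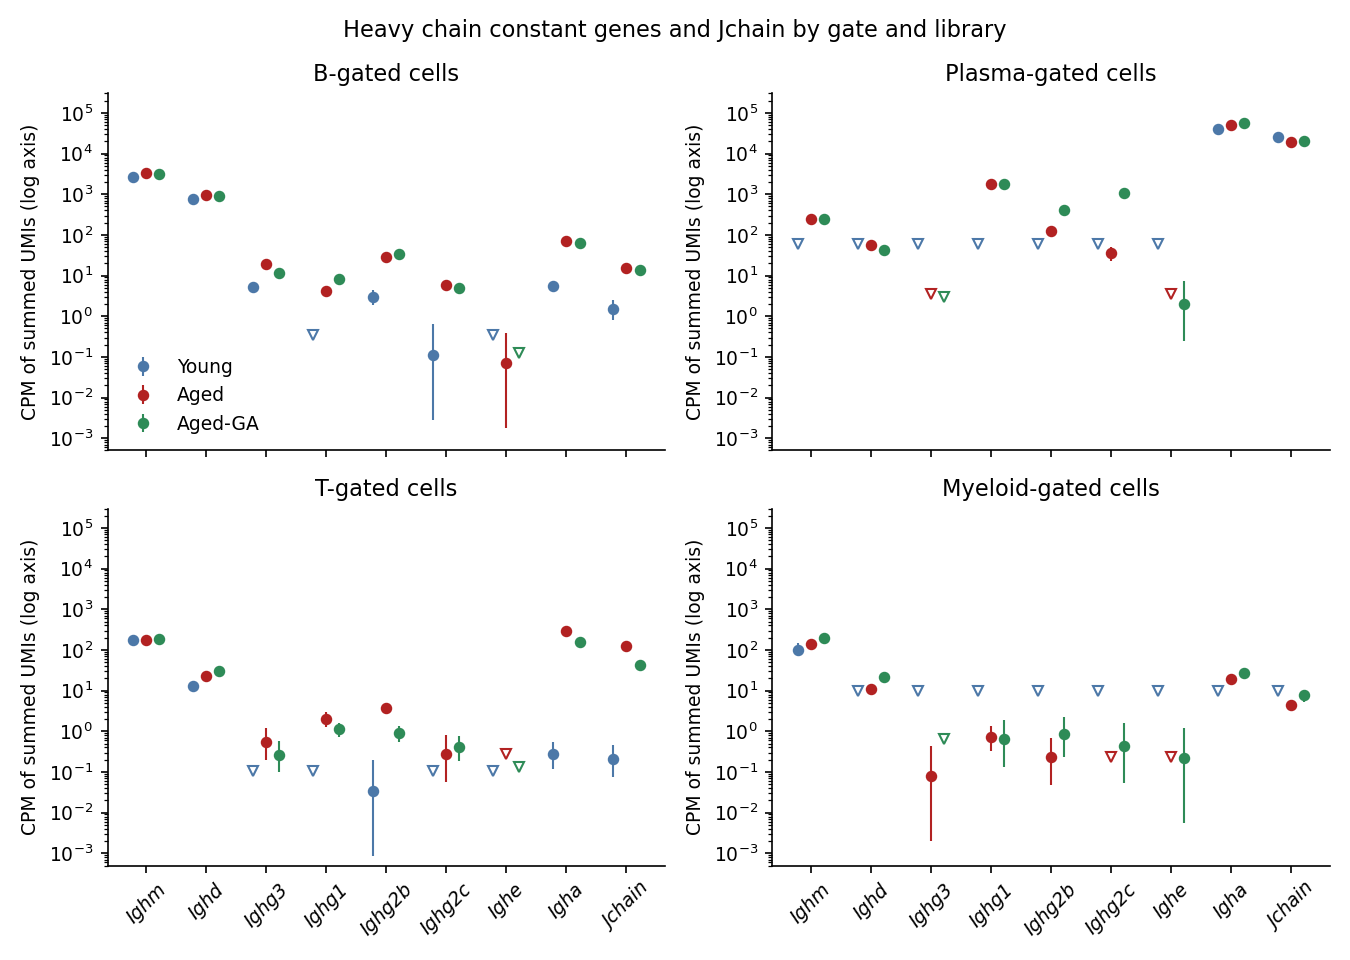
Level of each gene (CPM of UMIs summed over a gate, log axis) in B-, plasma-, T- and myeloid-gated cells of the 3 libraries. Points carry exact 95% Poisson intervals, and open triangles stand at the floor of 3 UMIs where none was counted; Ighm led in B-gated cells (2611 to 3277 CPM) and Igha in plasma-gated cells (41262 to 55795 CPM).

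In B-gated cells Ighm and Ighd made up nearly all heavy chain constant UMIs. Ighm, the constant region of IgM, stood at 2611 CPM (2578 to 2645) in the young, 3277 CPM (3247 to 3306) in the aged and 3159 CPM (3137 to 3182) in the aged-GA library. Ighd, the constant region of IgD, stood at 745 CPM (727 to 763), 967 CPM (951 to 983) and 898 CPM (886 to 910). Both were lowest in young mice and highest in aged mice, and the counting intervals of the 3 libraries did not overlap. The differences were small: the log2 ratio of aged over young was 0.33 (0.30 to 0.35) for Ighm and 0.38 (0.33 to 0.42) for Ighd, where the median over the 8877 genes counted was 0.28. The log2 ratio of aged-GA over aged was -0.05 (-0.07 to -0.04) for Ighm and -0.11 (-0.14 to -0.08) for Ighd, with a median of -0.05 over 9720 genes. Both comparisons use the same aged library, so they are not independent. Of the heavy chain constant UMIs of B-gated cells, Ighm took 77.5% in the young, 74.9% in the aged and 75.6% in the aged-GA library and Ighd 22.1%, 22.1% and 21.5%. One UMI is counted per molecule whatever its length, so these levels were compared between genes without division by length.

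Single B-gated cells varied more than the libraries. The middle 50% of cells held 5 to 12 Ighm UMIs in the young, 6 to 14 in the aged and 7 to 16 in the aged-GA library, with a median of 8, 10 and 11 and a maximum of 129, 371 and 179. For Ighd the middle 50% ran from 1 to 4, 1 to 5 and 2 to 5 UMIs and the maximum was 19, 19 and 36. Ighm was found in 99.1%, 98.6% and 99.2% of B-gated cells, and in 48.3%, 39.4% and 51.7% of T-gated cells of larger depth. With each cell thinned to 500 UMIs, the shares with Ighm were 67.5%, 75.9% and 74.6% in B-gated and 7.76%, 6.88% and 8.22% in T-gated cells. The thinned shares with Ighd were 31.0%, 38.8% and 36.3% in B-gated and 0.399%, 0.904% and 1.24% in T-gated cells. No cell of these gates had fewer than 500 UMIs. Both transcripts were found together in 86.3%, 88.2% and 90.6% of B-gated cells. Neither was found in 8, 46 and 42 cells.

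The ratio of Ighd to Ighm UMIs in B-gated cells was 0.285 (0.277 to 0.293) in the young, 0.295 (0.290 to 0.301) in the aged and 0.284 (0.280 to 0.289) in the aged-GA library. The young and aged intervals overlapped, as did the young and aged-GA ones, while the aged and aged-GA intervals did not. Over cells with at least 10 UMIs of both genes together, Ighd took a median of 20% of them in young (quartiles 10% and 34.4%), 23.1% in aged (11.1% and 35.7%) and 23.1% in aged-GA mice (12.5% and 33.3%). The IgD-poor end of this range was examined in cells with at least 10 Ighm UMIs. Of these, 119 of 858 young cells (13.9%, 11.6 to 16.4), 261 of 2057 aged cells (12.7%, 11.3 to 14.2) and 288 of 3211 aged-GA cells (8.97%, 8.00 to 10.0) had no Ighd UMI. Their median depth was 3567, 3215 and 4071 UMIs, against 4089, 3329.5 and 4053 UMIs in cells with Ighd; the part of depth in these shares was not tested.

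Genes outside the locus differed between those IgM-rich cells with and without Ighd, and the 4 named here did so in the same direction in the 3 libraries. Zfp318, a factor needed to read through from Ighm to Ighd, stood at 76.4 CPM without and 127 CPM with Ighd in young, at 100 and 224 CPM in aged, and at 73.0 and 234 CPM in aged-GA mice. Fcer2a, the low-affinity IgE receptor CD23 of follicular B cells, stood at 88.2 and 202 CPM in young, 120 and 248 CPM in aged, and 122 and 275 CPM in aged-GA mice. Fcrl5, a receptor-like gene of innate-like B cells, went the other way, at 31.4 and 11.8 CPM, 40.4 and 9.24 CPM, and 39.7 and 9.73 CPM. Mzb1, a chaperone of IgM assembly, was also higher without Ighd, by a log2 ratio of 0.43 in the young, 0.78 in the aged and 0.66 in the aged-GA library. The cells were chosen by Ighm and Ighd, and no test was made over cells.

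The switched genes were rare in B-gated cells and differed more between libraries than Ighm and Ighd. In the comparison of aged with young mice, 6 of the 9 genes reached 100 UMIs over both libraries. Of these, 4 genes, Ighg3, Ighg2b, Igha and Jchain, were at least 2-fold higher in aged mice and 0 at least 2-fold lower. Each of the 4 reached 100 UMIs only through the aged library, as young cells held 46, 26, 50 and 13 UMIs. The count thus rests on genes that the filter admitted through the library where they were higher. Among all genes counted in these cells, 4.57% were at least 2-fold higher and 0.732% at least 2-fold lower.

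Igha, the constant region of IgA, stood at 5.68 CPM (4.22 to 7.49) in the young, 71.2 CPM (66.9 to 75.6) in the aged and 64.4 CPM (61.2 to 67.7) in the aged-GA library. Its log2 ratio of aged over young mice was 3.43 (3.24 to 4.09), on log2(CPM + 1), and the interval refers to the ratio without the added 1. A single young cell held 36 of the 50 young UMIs, and without the leading cell of each library the log2 ratio was 4.66. With the level of all T-gated cells subtracted it was -2.68, and that of Jchain -1.18; few Igha-rich cells, described with the T gate, set that level. Ighg2b, an IgG subclass gene, stood at 2.95 CPM (1.93 to 4.33), 28.2 CPM (25.5 to 31.0) and 33.2 CPM (30.9 to 35.6), a log2 ratio of 2.88 (2.68 to 3.89). Without the cell that held most Ighg2b UMIs in each library, 193 of 409 in aged mice, it was 2.38. Ighg3, the IgG gene nearest to Ighd, stood at 5.23 CPM (3.83 to 6.97), 18.8 CPM (16.6 to 21.2) and 11.7 CPM (10.4 to 13.2), a log2 ratio of 1.67 (1.39 to 2.33). A single aged cell held 107 of the 273 aged Ighg3 UMIs, and without the leading cell of each library the log2 ratio was 1.39. Jchain stood at 1.48 CPM (0.787 to 2.53), 15.7 CPM (13.7 to 17.9) and 14.1 CPM (12.6 to 15.7), a log2 ratio of 2.75 (2.61 to 4.34). For each of these genes the young interval lay below those of both libraries of 16-month-old mice. The sizes depended on the gate. A stricter marker gate also allowed at most 1 marker of each other list, and a looser one asked for at least 2 markers and 1 more than of another type. The log2 ratio of Ighg2b was 1.62 with the stricter and 2.10 with the looser gate. With the looser gate that of Igha was 2.52, of Jchain 2.13 and of Ighg3 1.07.

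The remaining switched genes did not reach 100 UMIs in that comparison. Ighg1 had 0 UMIs in young B-gated cells, against 60 in aged cells (4.13 CPM), 19 of them in 1 cell. With young cells set at the floor of 3 UMIs per gate, its level was 12.1-fold higher in aged cells. The lower bound of its counting interval was 9.56-fold. Ighg2c, which C57BL/6 mice carry in place of Ighg2a, had 1 UMI in young and 83 in aged cells, 50.3-fold with a counting interval from 8.78 to 2011. Ighe, the constant region of IgE, had 0, 1 and 0 UMIs in young, aged and aged-GA B-gated cells, and the floor of 3 UMIs was 0.341, 0.207 and 0.127 CPM.

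Between aged and aged-GA mice, 8 of the 9 genes reached 100 UMIs in B-gated cells and 0 of them differed by at least 2-fold in either direction, where 0.0412% of all genes counted were at least 2-fold higher and 0.442% at least 2-fold lower. The count of 0 held for this gate but not for others: with the stricter gate Ighg1 (log2 ratio 1.28) and Ighg2b (1.32) passed 2-fold, and with the looser gate Ighg2b (1.11) did. Ighg1 came nearest, at 8.13 CPM (7.02 to 9.36) in aged-GA against 4.13 CPM (3.15 to 5.32) in aged mice, a log2 ratio of 0.83 (0.55 to 1.42). Ighg3 had a log2 ratio of -0.64 (-0.93 to -0.44), and of -0.12 without the leading cell of each library. Ighg2b had a log2 ratio of 0.23 (0.06 to 0.41), and of 1.00 without those cells. Igha had a log2 ratio of -0.14 (-0.26 to -0.03), and of -0.57 without them, since 1 aged-GA cell held 500 of 1521 UMIs; it was -0.91 with the stricter and 0.20 with the looser gate, so its direction depended on the gate. Ighg2c and Jchain had intervals that included 0, from -0.59 to 0.25 and from -0.40 to 0.09, and ratios of 0.47 and 0.32 with the looser gate. Single cells thus moved the ratios of Ighg3, Ighg2b and Igha by more than their counting intervals allow.

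**Figure D2:**
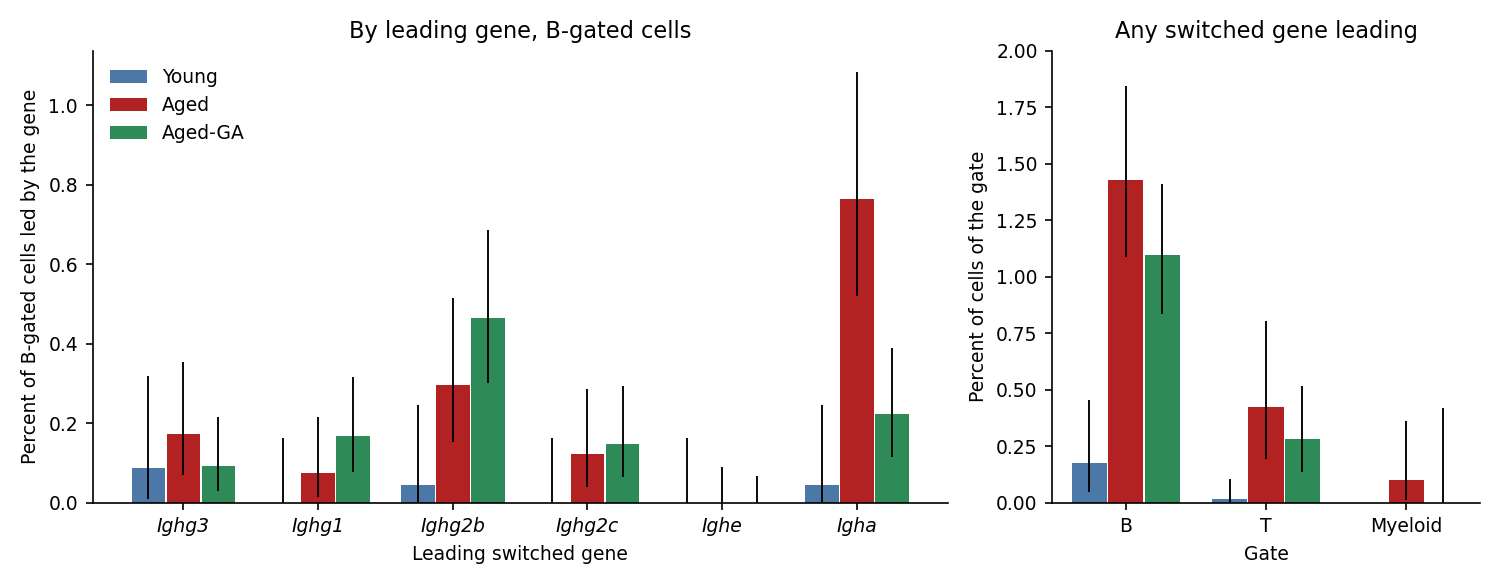
Percent of B-gated cells led by each switched gene (left) and percent of B-, T- and myeloid-gated cells led by any of them (right), with exact 95% binomial intervals; the 64 young myeloid cells, with 0 called, are not drawn. Igha led 31 of 4057 aged cells and 12 of 5379 aged-GA cells, and Ighg2b 12 and 25.

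A B-gated cell was called switched where 1 switched gene had at least 3 UMIs and more than Ighm and Ighd together. This held for 4 of 2254 young cells (0.177%, 0.0484 to 0.454), 58 of 4057 aged cells (1.43%, 1.09 to 1.84) and 59 of 5379 aged-GA cells (1.10%, 0.836 to 1.41). The same call, as a background, was met by 1 of 5369, 9 of 2123 and 10 of 3543 T-gated cells (0.0186%, 0.424% and 0.282%) and by 0 of 64, 2 of 2004 and 0 of 880 myeloid-gated cells. For the 64 young myeloid cells the floor of 3 counts is a share of 4.69% and the upper bound of the exact interval 5.60%, and for the 880 aged-GA ones 0.341% and 0.418%. The aged and aged-GA intervals in B-gated cells lay above the young one and overlapped each other.

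The leading genes were not the same mix in the 2 libraries of 16-month-old mice. Igha led in 31 aged cells (0.764%, 0.520 to 1.08) and 12 aged-GA cells (0.223%, 0.115 to 0.389), and these intervals did not overlap. An Ighg gene led in 27 aged cells (0.666%, 0.439 to 0.967) and 47 aged-GA cells (0.874%, 0.643 to 1.16), with overlapping intervals. Among them Ighg2b was most frequent, with 12 and 25 cells, followed by Ighg3 in aged mice with 7 cells and Ighg1 in aged-GA mice with 9 cells. Ighe led in 0 cells of any library. The young cells were 2 led by Ighg3, 1 by Ighg2b and 1 by Igha. With at least 10 UMIs required for the call, the switched share was 0.739% in aged and 0.744% in aged-GA mice. In T-gated cells Igha led in 8 of 9 aged and 10 of 10 aged-GA calls, so the background of the call was almost wholly IgA. These were 0.377% (0.163 to 0.741) of aged and 0.282% (0.135 to 0.518) of aged-GA T-gated cells. The aged-GA share led by Igha in B-gated cells, 0.223%, was not above that of the T gate. In aged mice the Igha intervals of the B and T gates overlapped. The T-gated calls were not free RNA alone, as those led by Igha held a median of 389 Igha UMIs in aged and 15 in aged-GA mice. T-gated cells with at least 10 Igha UMIs, 7 aged and 6 aged-GA, held medians of 8 and 7 plasma markers. The share of T-gated calls thus cannot serve as a level of free RNA for the Igha-led B-gated cells. Those B-gated cells held a median of 12 Igha UMIs in aged (3 to 96) and 10.5 in aged-GA mice (3 to 500). No myeloid-gated cell of either library held more than 3. Igha led in 0.0998% (0.0121 to 0.360) of aged and 0 of 880 aged-GA myeloid-gated cells. The part of free RNA in the Igha-led B-gated cells was not tested.

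Switched cells held few Ighm and Ighd UMIs. They had no Ighd UMI in 4 of 4 cells in the young library, 51 of 58 in the aged and 53 of 59 in the aged-GA library, and no Ighm UMI in 4, 40 and 41 of them, although their median depth of 5804.5, 4984 and 5805 UMIs exceeded that of the other B-gated cells. The rule for the call favours few Ighm and Ighd UMIs. Genes that the call did not use differed as well: Zfp318 stood at 49.3 and 48.1 CPM in aged and aged-GA switched cells, against 241 and 233 CPM in the other B-gated cells, and Fcer2a at 87.6 against 254 CPM in aged mice and 106 against 276 CPM in aged-GA mice. Jchain stood at 233 and 172 CPM in aged and aged-GA switched cells, against 10.1 and 11.4 CPM in the other cells. Switched cells held 85 of 228 aged and 68 of 333 aged-GA Jchain UMIs of the gate. Few cells held much of the Jchain of the gate: a single cell held 42 aged and 51 aged-GA UMIs. The 21 aged and 10 aged-GA B-gated cells with at least 10 Igha UMIs held 77 and 54 Jchain UMIs. How many of these cells were called switched is not given here, so the Jchain levels may not describe switched cells in general.

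**Figure D3:**
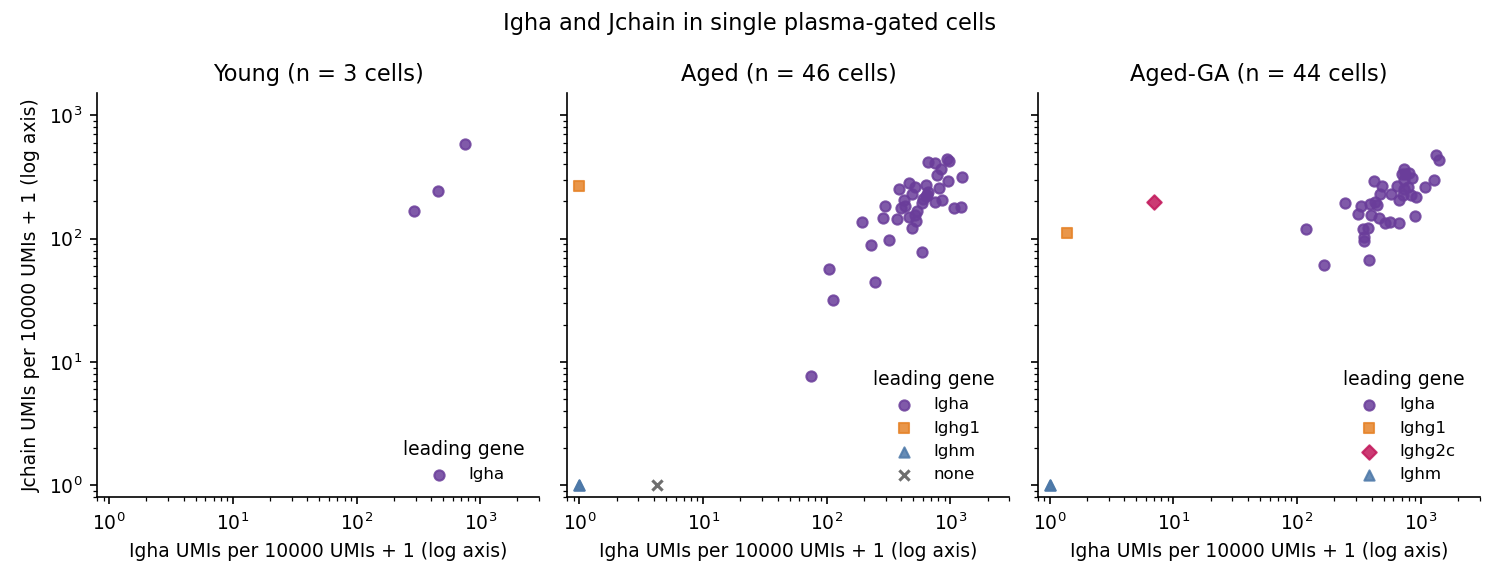
Igha against Jchain in each plasma-gated cell (UMIs per 10000 UMIs of the cell, plus 1, log axes), 1 panel per library, with the marker giving the leading heavy chain gene. The cells led by Igha lie at high Igha and Jchain, the 3 cells led by an Ighg gene at low Igha and high Jchain, and the cells led by Ighm at 0 of both.

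Most cells of the plasma gate were IgA cells. A gene was called leading where it had at least 10 UMIs and over 50% of the UMIs of the 8 heavy chain constant genes. Igha led in 3 of 3 young cells (100%, 29.2 to 100), 42 of 46 aged cells (91.3%, 79.2 to 97.6) and 40 of 44 aged-GA cells (90.9%, 78.3 to 97.5). With a looser plasma gate, which asked for 1 of Sdc1, Prdm1, Tnfrsf17 and Derl3 in place of 2, the shares were 42.9%, 60.8% and 47.1%. A stricter plasma gate, which asked for more of the 10 plasma markers, gave 100%, 97.6% and 95.2%. Summed over the gate, Igha stood at 41262 CPM in the young, 50379 CPM in the aged and 55795 CPM in the aged-GA library, and Jchain at 25072, 19047 and 20482 CPM. The 3 young cells held 476, 670 and 870 Igha UMIs. The cells led by Igha ran from 93 to 2332 UMIs with a median of 960 in aged and from 222 to 3381 with a median of 1243.5 in aged-GA mice. Per 10000 UMIs of the cell the medians were 451, 529 and 569, and the ranges, 288 to 758, 73.6 to 1236 and 117 to 1412, overlapped almost fully.

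Within an IgA cell the heavy chain was close to pure. Igha took a median of 99.9% of the heavy chain constant UMIs in aged cells and 99.8% in aged-GA cells, with the lowest cell at 79.7% and 87.8%. No other heavy chain gene was found in the 3 young cells. Ighm was at 0 in 23 of 42 aged and 16 of 40 aged-GA IgA cells, and its highest value was 49 and 46 UMIs. An Ighg gene had at least 5 UMIs in 6 of 42 aged and 14 of 40 aged-GA cells. Ighg2b reached 32 UMIs in aged and 176 in aged-GA IgA cells, and Ighg2c 22 and 14. Reads from stretches shared by these genes cannot be given to 1 of them. The cells with these highest Ighg2b counts held 0 Ighg2c UMIs, and those with the highest Ighg2c counts 0 Ighg2b UMIs. Some of these barcodes held markers of other cells. The aged-GA cell with 176 Ighg2b UMIs held 7 T and 5 B markers, and that with 46 Ighm UMIs 8 B markers. The aged cells with 32 Ighg2b and 22 Ighg2c UMIs held 4 and 2 B markers and 0 T markers. Whether such a barcode held more than 1 cell was not tested. Light chains of the IgA cells were kappa in 3 of 3, 42 of 42 and 38 of 40.

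The cells not led by Igha were few. In aged mice 1 cell was led by Ighg1, with 1492 UMIs and 98.4% of its heavy chain UMIs, 2 by Ighm with 34 and 37 UMIs, and 1 by no gene. In aged-GA mice 1 cell was led by Ighg1, with 1736 UMIs, 1 by Ighg2c, with 992 UMIs, and 2 by Ighm with 10 and 49 UMIs. The cells led by Ighg1 and Ighg2c held 9 or 10 of the 10 plasma markers. Those led by Ighm held a median of 4 plasma and 8 B markers in aged and of 4.5 and 7 in aged-GA mice, with no Jchain UMI. IgM plasma cells with high Ighm were thus not found among these 93 cells.

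Jchain was present in every plasma-gated cell led by Igha or an Ighg gene. In IgA cells it ran from 368 to 471 UMIs in the young, 15 to 705 in the aged and 185 to 1046 in the aged-GA library. Per Igha UMI the median over cells was 0.576 for the young library, 0.357 for the aged (quartiles 0.280 and 0.470) and 0.362 for the aged-GA library (0.290 and 0.469). The 3 young ratios, 0.541 to 0.773, lay above the upper quartiles of both other libraries, and the highest lay outside the aged range of 0.0909 to 0.709 and inside the aged-GA range of 0.170 to 1.01. The 3 IgG cells, whose heavy chain ends without the cysteine codon shown above, held 498, 288 and 334 Jchain UMIs. That is 265, 110 and 198 per 10000 UMIs, within the range of the IgA cells of the same library, 6.69 to 437 in aged and 59.6 to 478 in aged-GA mice. Across IgA cells of a library, Igha and Jchain per 10000 UMIs had a Pearson r of 0.66 over 42 aged and 0.75 over 40 aged-GA cells, each pair of values sharing the depth of 1 cell. Together Igha and Jchain took a median of 6.95%, 7.27% and 7.77% of all UMIs of an IgA cell, and all immunoglobulin genes with Jchain 22.2%, 26.2% and 29.0%.

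Between aged and aged-GA mice, 6 of the 9 genes reached 100 UMIs in plasma-gated cells, and 2 of them, Ighg2b and Ighg2c, were at least 2-fold higher in aged-GA mice, with 0 at least 2-fold lower. Among all 1795 genes counted there, 0.78% were at least 2-fold higher and 0.724% at least 2-fold lower. Ighg2c stood at 1060 CPM in aged-GA and 34.9 CPM in aged mice, but 992 of its 1058 aged-GA UMIs came from 1 cell. With 29 UMIs in aged mice, it reached 100 UMIs only through the aged-GA library. Ighg2b stood at 402 and 125 CPM, a log2 ratio of 1.67 (1.37 to 2.01), with 176 of 401 aged-GA UMIs in 1 cell. Without the plasma-gated cells that held at least 3 T markers the log2 ratio of Ighg2b was 0.91. With the looser plasma gate it was 0.11, so the 2-fold difference of Ighg2b depended on the gate. Igha had a log2 ratio of 0.15 (0.13 to 0.17) and Jchain of 0.10 (0.07 to 0.13). Ighg1 stood at 1796 and 1782 CPM in aged and aged-GA mice, in each case 1 cell with 1492 and 1736 UMIs. With 3 young cells, 2 of them with T markers, the young levels are given without a count of genes.

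**Figure D4:**
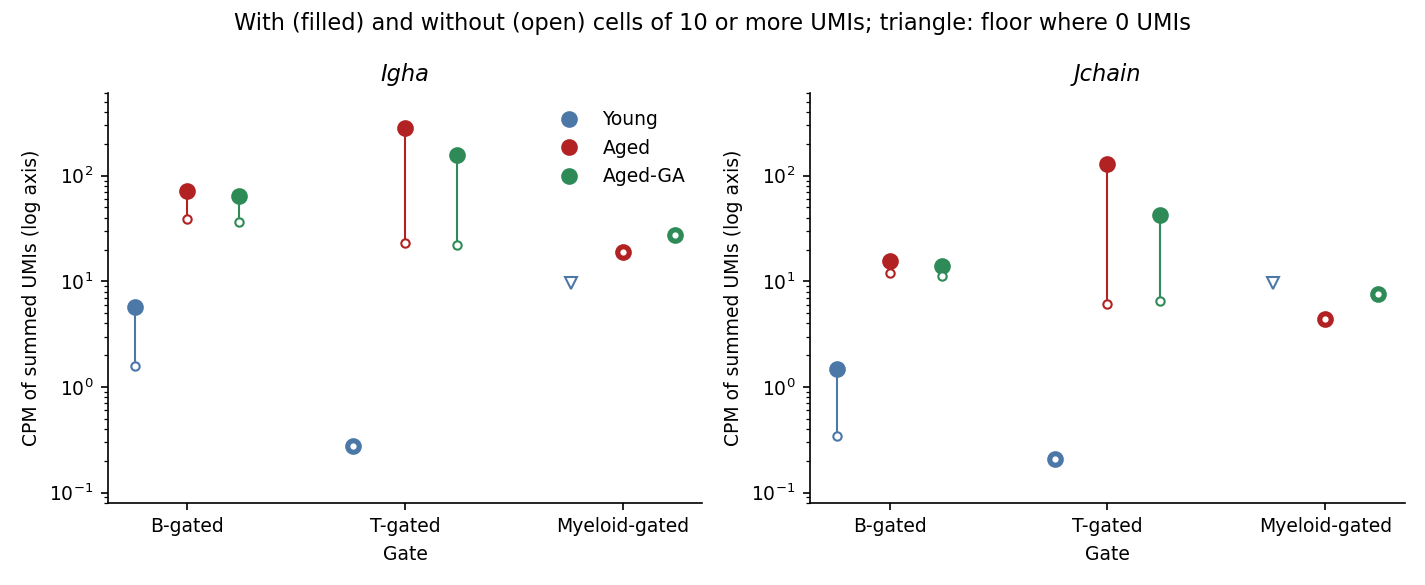
Igha (left) and Jchain (right) outside the plasma gate (CPM, log axis), with all cells (filled) and without cells of 10 or more UMIs of the gene (open); triangles mark the floor where 0 UMIs were counted. In T-gated cells of aged mice Igha was at 286 CPM with and 22.9 CPM without those cells.

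Outside the plasma gate, Igha and Jchain were found in all gates of the 2 libraries of 16-month-old mice. In T-gated cells, which should lack it, Igha stood at 0.275 CPM (0.119 to 0.542) in the young, 286 CPM (276 to 296) in the aged and 158 CPM (153 to 164) in the aged-GA library. Most of that came from few cells: 7 aged cells with at least 10 UMIs held 2886 of 3134 UMIs and 6 aged-GA cells 3065 of 3563. Those 13 cells held a median of 8 and 7 plasma markers beside 8 and 7.5 T markers, and 1 in each library was called a doublet. Without them the T gate stood at 22.9 and 22.2 CPM in aged and aged-GA mice. Myeloid-gated cells, where no cell reached 10 UMIs, stood at 19.2 CPM (16.8 to 21.7) and 27.8 CPM (23.1 to 33.0). The 64 young myeloid cells held 0 Igha UMIs, with a floor of 9.57 CPM.

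With such rich cells left out of each gate, the summed CPM was higher in B-gated than in T-gated cells of the same library. It was also higher than in myeloid-gated cells of the aged and aged-GA libraries. The 64 young myeloid cells, with 0 UMIs and a floor of 9.57 CPM, allow no such comparison. B-gated cells were shallower than T-gated ones, with medians of 3070 and 4681 UMIs in aged and 3768 and 5913 in aged-GA mice. The part of depth in these levels was not tested. Without cells of at least 10 Igha UMIs, of which there were 1, 21 and 10, the B gate held 1.59 CPM in the young, 39.0 CPM in the aged and 36.4 CPM in the aged-GA library. When both the rich B-gated and the rich T-gated cells were left out and the remaining T level was subtracted, an alternative chosen after the values were seen, the log2 ratio of Igha in B-gated cells was 2.89 for aged over young, and that of Jchain 2.28. Cells thinned to 500 UMIs held Igha in 2.24% of B-gated, 1.51% of T-gated and 1.54% of myeloid-gated aged cells, and in 1.95%, 1.33% and 1.97% of aged-GA cells. In young mice the shares were 0.105%, 0.0122% and 0%. Unthinned, an Igha UMI was found in 11.3% of B-gated, 11.5% of T-gated and 11.2% of myeloid-gated aged cells and in 13.6%, 13.1% and 13.0% of aged-GA cells. In young mice the unthinned shares were 0.665% of B-gated and 0.112% of T-gated cells. Unthinned, the B-gated shares of aged and aged-GA mice were thus near those of cells that should lack the gene. Thinned, the B-gated share was above the T-gated one in each library, and in aged-GA mice it was near the myeloid-gated one. A single Igha UMI in a B-gated cell cannot be told apart from free RNA.

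In the aged and aged-GA libraries the low Igha counts came with Jchain at similar rates across gates. Over cells with fewer than 10 Igha UMIs, the aged library held 0.270 Jchain UMIs per Igha UMI in B-gated (0.224 to 0.323), 0.262 in T-gated (0.196 to 0.346) and 0.230 in myeloid-gated cells (0.168 to 0.308). In aged-GA cells the values were 0.325 (0.283 to 0.373), 0.291 (0.240 to 0.351) and 0.276 (0.184 to 0.403). The intervals overlapped between gates within each library. The pooled ratio in IgA plasma-gated cells was 0.366 in aged mice, above the intervals of the B, T and myeloid gates. In aged-GA mice it was 0.356, above the interval of the T gate and within those of the B and myeloid gates. Young counts were too few for such a comparison, with 3 Jchain and 14 Igha UMIs in B-gated and 6 and 8 in T-gated cells.

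Of all Igha UMIs of a library, plasma-gated cells held 95.2% in the young, 84.1% in the aged and 88.5% in the aged-GA library, and B-gated cells 2.36%, 2.08% and 2.42%. Cells without a gate held 7.03% in aged and 3.17% in aged-GA mice. At least 100 Igha UMIs were found in 3 young cells, all in the plasma gate, and in 49 aged cells, of which 41 were in the plasma gate, 5 in the T gate and 3 in none. The 47 aged-GA cells were 40 in the plasma gate, 4 in the T gate, 1 in the B gate and 2 in none. Jchain followed Igha closely, with 98%, 84.1% and 92.0% of its UMIs in plasma-gated cells. Ighm was spread instead: its 10 richest cells held 2.41%, 2.06% and 1.52% of the UMIs of a library, against 98.9%, 31.9% and 37.8% for Igha.

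**Figure D5:**
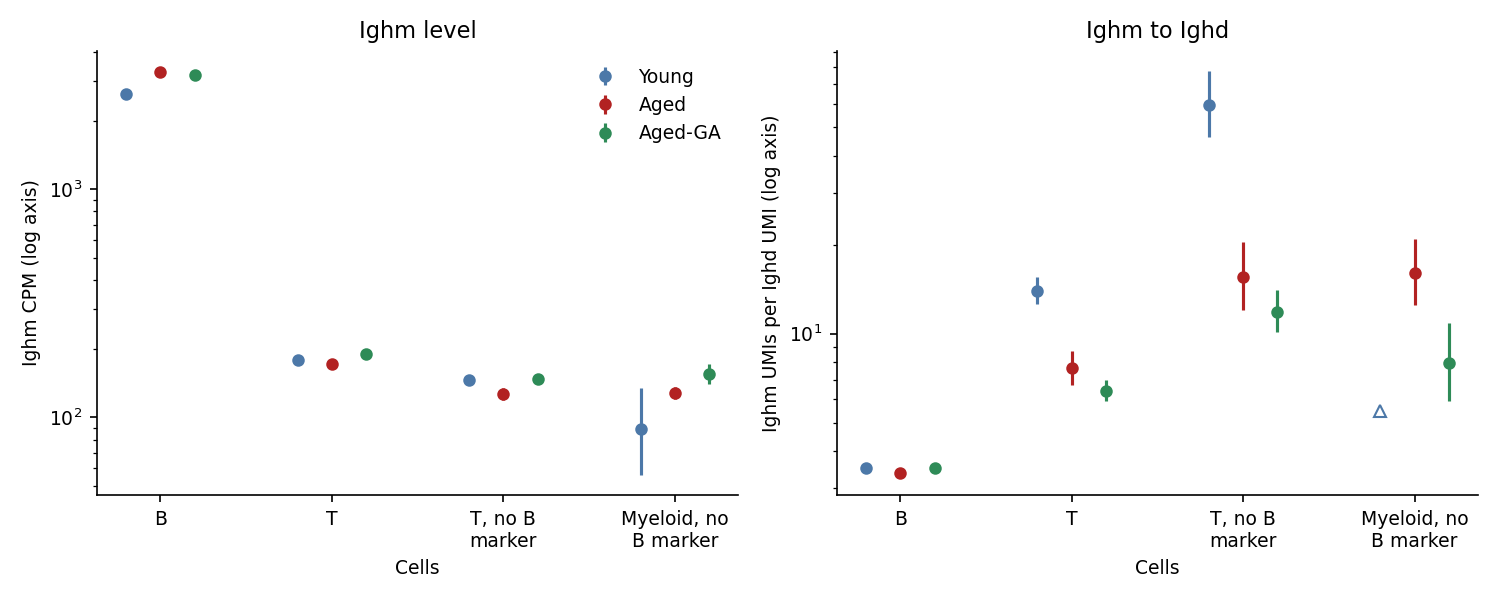
Ighm level (left, CPM) and Ighm UMIs per Ighd UMI (right), both on log axes with exact 95% intervals, in B-gated, T-gated and B-marker-free T- and myeloid-gated cells of the 3 libraries. The open triangle is the lower bound for young myeloid cells, which held 0 Ighd UMIs; B-gated cells of the 3 libraries stood at 3.39 to 3.52 and young T-gated cells without B markers at 59.3.

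Ighm was also present outside B cells, with less Ighd than in B cells. In T-gated cells it stood at 179 CPM (174 to 184) in the young, 172 CPM (164 to 180) in the aged and 190 CPM (185 to 196) in the aged-GA library, and in myeloid-gated cells at 102 CPM (69.9 to 144), 143 CPM (137 to 150) and 201 CPM (188 to 214). B-gated cells held 3.51, 3.39 and 3.52 Ighm UMIs per Ighd UMI. T-gated cells held 14.0 (12.6 to 15.6), 7.65 (6.70 to 8.77) and 6.41 (5.91 to 6.97), all above the intervals of the B gate. In T-gated cells with no UMI of any of the 8 B markers, Ighm stood at 146 CPM (141 to 150), 127 CPM (119 to 135) and 147 CPM (140 to 154). Ighd stood there at 2.45 CPM (1.89 to 3.14) in the young, 8.14 CPM (6.25 to 10.4) in the aged and 12.3 CPM (10.5 to 14.4) in the aged-GA library. The ratio was then 59.3 (46.3 to 77.4) in the young, 15.6 (12.1 to 20.4) in the aged and 11.9 (10.1 to 14.1) in the aged-GA library. In these cells the Ighm intervals of young and aged-GA mice overlapped, while the young Ighd interval lay below both others.

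Against the kappa light chain the T gate as a whole and its cells without B markers went different ways. Ighm UMIs per Igkc UMI were 0.245, 0.334 and 0.291 in young, aged and aged-GA B-gated cells. In all T-gated cells they were 1.36, 0.0971 and 0.248, above the B gate in young and below it in aged and aged-GA mice. In T-gated cells without B markers they were 9.92 (8.92 to 11.1), 0.968 (0.886 to 1.06) and 0.995 (0.933 to 1.06). Aged and aged-GA plasma-gated cells, rich in Igkc, held 0.00141 and 0.00125. The aged and aged-GA T gates included the few Igha-rich cells with plasma markers described above, and their part in the ratios of all T-gated cells was not tested. Igkc stood at 132, 1768 and 767 CPM in all T-gated cells of the young, aged and aged-GA libraries. It stood at 14.7, 131 and 147 CPM in T-gated cells without B markers. The Ighm signal of these T cells was spread over many of them: 47.2%, 36.2% and 48.9% had an Ighm UMI and the highest cell had 9, 16 and 14. It was found in both main T lineages, a split chosen after the values were seen. Cells with Cd4 and no Cd8a or Cd8b1 stood at 153 CPM (142 to 164), 168 CPM (150 to 187) and 159 CPM (144 to 175), and cells with Cd8a or Cd8b1 and no Cd4 at 139 CPM (132 to 146), 94.9 CPM (84.9 to 106) and 128 CPM (120 to 137). Myeloid-gated cells without B markers held 16.1 Ighm UMIs per Ighd UMI in aged (12.5 to 21.0) and 7.96 in aged-GA mice (5.92 to 10.9). Where the Ighm UMIs of T and myeloid cells came from was not tested.

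The genes of switching and heavy chain RNA processing, 14 in all, reached 100 UMIs in B-gated cells for 12 of them. For aged over young, 1 of the 12 was at least 2-fold higher and 0 at least 2-fold lower, beside 4.57% and 0.732% of all genes. A count of 1 among 12 genes says little beside such a share. The median log2 ratio was 0.56 beside 0.28 over all genes. The gene past 2-fold was Pou2f2, which encodes the octamer-binding factor Oct-2. It stood at 177 and 370 CPM in young and aged mice, a log2 ratio of 1.06 (0.98 to 1.14). Zfp318 stood at 143 and 236 CPM, a log2 ratio of 0.71 (0.62 to 0.81), and Pou2af1, the coactivator of Oct-2, at 159 and 247 CPM. Trp53bp1, a repair protein that protects the broken ends during switching, stood at 11.6 and 23.4 CPM. For aged-GA over aged, 0 of the 12 differed by at least 2-fold, where 0.0412% of all genes were higher and 0.442% lower. The median was -0.10 beside -0.05 over all genes.

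Of 9 partners and receptors of immunoglobulin, 7 reached 100 UMIs, and 0 of them differed by at least 2-fold in either comparison. Over all genes 4.57% were higher and 0.732% lower for aged over young, and 0.0412% and 0.442% for aged-GA over aged. Beside these shares a count of 0 in so short a list, here or among the light chains below, says little. The median log2 ratio of the 7 was 0.19 for aged over young and 0.09 for aged-GA over aged. Cd79a, which anchors membrane immunoglobulin, had a log2 ratio of -0.04 and 0.09. Fcmr, the receptor for IgM, stood at 709 CPM in the young, 595 CPM in the aged and 811 CPM in the aged-GA library. Its log2 ratio was -0.25 (-0.30 to -0.21) for aged over young and 0.45 (0.41 to 0.48) for aged-GA over aged. Pigr, the epithelial carrier of polymeric IgA and IgM, and Fcamr, a receptor for IgA and IgM, stayed under 100 UMIs, Fcamr at 0. The 4 light chain constant genes had a median log2 ratio of 0.45 and -0.22, with 0 past 2-fold; Igkc itself stood at 10677, 9813 and 10860 CPM.

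Likeness of level was measured over 12 profiles, 4 gates in 3 libraries, as Pearson's r of log2(CPM + 1) among 10298 genes with at least 300 UMIs, immunoglobulin genes left out. The profiles share libraries and gates, and r is given as a description. The young plasma profile came from 3 cells, with Ighm and Ighd at 0 UMIs and a floor of 61.4 CPM. It counted as much as the other profiles, and its part in the r values below was not tested. Ighd went most closely with H2-Oa and H2-DMb2, genes of the MHC class II pathway, at 0.99 each, then Snx29, Gga2 and Ms4a1, all at 0.99. Ighm went with Abca1, Pmf1, Txndc16, Prkce and Nrm, at 0.98 each. Igha went with Jchain at 0.99, then Cd2bp2, Ube2o, Yars and Mlec at 0.95 to 0.96. Jchain went with Tnfrsf17, the plasma cell receptor BCMA, at 0.98, then Cd2bp2, Ccr10, Mlec and Yars. Between members, Ighd and Ighm had 0.88, Ighg1 and Ighg2c 0.93, and Igha and Ighm -0.38. The plasma profiles of Ighg1 and Ighg2c were set by single cells. For Ighg1, 1 cell held all 1492 aged UMIs and 1 cell 1736 of 1779 aged-GA UMIs. For Ighg2c, another aged-GA cell, with 0 Ighg1 UMIs, held 992 of 1058. Their r thus does not show both genes in the same cells.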

How the data were processed

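PBMCs were measured by droplet 3′ single-cell RNA sequencing, 1 library per group. The authors mapped reads with Cell Ranger, to mm10 per the labels, and deposited matrices of raw UMI counts, whose headers give version 5.0.0. Members and gene lists were chosen with earlier results of these data known.

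Cells were kept by the stated limits of the study, 200 genes or more, no more than 90% of the maximal gene number and no more than 7.5% mitochondrial UMIs; its cell numbers are lower than those kept in young and aged-GA and higher in aged mice. Gates used lists of 8 markers for B, T, NK and myeloid cells: at least 3 detected and 2 more than of any other list. Plasma cells needed Mzb1, no Siglech, 4 of 10 plasma markers, 2 of Sdc1, Prdm1, Tnfrsf17 and Derl3, and 2 more plasma than T, NK or myeloid markers. Cells above 20% haemoglobin were ungated.

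UMIs were summed per gate and library as CPM; log2 ratios used a pseudocount of 1 CPM. Genes needed 100 UMIs over both libraries. Levels have exact Poisson, shares exact binomial (Clopper-Pearson) and ratios exact conditional binomial 95% intervals, for counting error only; the floor is 3 counts. Doublets were called with Scrublet (scanpy 1.11.5) at a score of 0.2 in every library, since the automatic threshold called 0 aged-GA cells, and were left out only as an alternative. Thinned shares are expectations of drawing 500 UMIs without replacement. On simulated counts 100% (aged over young, 8877 genes) and 99.5% (aged-GA over aged, 9720 genes) of 4-fold changes passed 2-fold. These counts were independent Poisson sums, with no UMIs gathered in single cells, so the rates may not hold for genes that single cells led. Python 3.11.15, scipy 1.17.1 and matplotlib 3.10.9 were used. Named are the members, the markers and related lists, and the 5 genes most like Ighm, Ighd, Igha and Jchain; Cd4, Cd8a and Cd8b1 were named after values were seen. Alternatives were the gate, doublets, filters, denominator, pseudocount, subtraction of the T level, single cells, haemoglobin limit and call minimum. One gene of the switching list is not reported here.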

Additional observations from a re-analysis of the deposited data

Results flagged for a closer look

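Igha had ratios of opposite sign in the B and plasma gates between aged and aged-GA mice. Its log2 ratio of aged-GA over aged was -0.14 in B-gated and 0.15 in plasma-gated cells, a difference of -0.29, with 1 library per group, and the difference was not tested. Both signs turned with the looser gate, to 0.20 and -0.0078, and with the stricter gate the values were -0.91 and 0.12.

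The filters on cells removed 2 barcodes of the aged-GA library that met the markers of the plasma gate. They held 915 Igha UMIs and 53 Jchain UMIs, with 8.81% and 15.7% mitochondrial UMIs. The aged library had 0 such barcodes, and the young library had 1, with 0 Igha UMIs.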

How the results depend on the processing

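No paired analysis was possible because each group is 1 library. With 1 library per group, leaving one out was not run. Of 360 ratios of single genes under the alternatives, 267 stayed within the counting interval, 90 moved beyond it and 3 that were past 2-fold changed direction; of 126 counts and shares, 104 stayed and 22 moved. In all, 21 of the 360 ratios took the opposite sign, 16 of them for aged-GA over aged and 9 of them with the loose gate. The cause was not tested for any value below.

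With the level of T-gated cells subtracted, the log2 ratio of aged over young in B-gated cells was -2.68 for Igha and -1.18 for Jchain, with 2 genes at least 2-fold higher and 2 lower, 1 was 2-fold higher for aged-GA over aged, and Ighd per Ighm stood at 0.301, 0.304 and 0.292 in young, aged and aged-GA mice. Without B- and T-gated cells of 10 or more Igha UMIs and with the remaining T level subtracted, added after seeing the data, the 2 log2 ratios were 2.89 and 2.28, and 1 gene was 2-fold higher for aged-GA over aged. With the strict gate, 2 genes (Ighg1 and Ighg2b) were 2-fold higher in aged-GA B-gated cells, Igha led 97.6% of aged plasma-gated cells, and Ighd per Ighm was 0.303 in aged and 0.292 in aged-GA mice. With the loose gate, 1 gene (Ighg2b) was 2-fold higher in aged-GA B-gated cells. In plasma-gated cells of that gate 1 gene (Ighg2c) was higher and 1 (Ighg3) lower, and Ighg2b had a log2 ratio of 0.11. Igha led 42.9%, 60.8% and 47.1% of these young, aged and aged-GA plasma-gated cells. The log2 ratio of Ighm there, aged over young, was -1.17. Without filters on cells Ighd per Ighm was 0.276 in young and 0.278 in aged-GA mice. With a pseudocount of 10 CPM the median of the switching and RNA processing genes, aged over young, was 0.44. With 10 UMIs required, switched cells were 0.739% of aged and 0.744% of aged-GA B-gated cells. Without plasma-gated cells of 3 or more T markers, added after seeing the data, 1 gene was 2-fold higher in aged-GA plasma-gated cells. The 3 young plasma-gated cells and the 64 young myeloid cells limit every value of those gates.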
